A study of Mus musculus with 6 samples.

Results

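Fibroblast growth factors (FGFs) are secreted proteins that bind, together with heparan sulfate, to receptor tyrosine kinases on the surface of nearby cells. The receptor then passes the signal through the RAS-ERK and PI3K cascades. In the lung, Fgf10 and Fgf7 are made mainly by mesenchymal cells and act on the epithelium through the IIIb form of Fgfr2, a route known for branching of the airways and for growth, survival and repair of alveolar type 2 (AT2) cells. The genes described here were chosen by symbol. They are 6 FGF ligand genes of the lung (Fgf1, Fgf2, Fgf7, Fgf9, Fgf10 and Fgf18) and the 4 FGF receptor genes (Fgfr1 to Fgfr4), which makes 10 of the 23478 genes in the deposited count table. All 10 passed the filter on low counts.

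RNA sequencing was done on AT2 cells, the surfactant-producing cells of the alveolus, taken from adult mice of mixed background. The groups were mice with a conditional deletion of Abca3, the lipid transporter of lamellar bodies (Abca3 cKO, n = 3), and control mice (n = 3). Tamoxifen was given to both groups, and the series places them 6 days after it, although the treatment label can be read as 6 days of dosing. The Cre line, the controls' genotype and the deleted exons are not stated in the labels. The labels also do not say that replicates were separate animals, so p-values measure only the spread between these libraries.

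Depth was even, at 23667614 to 26052953 counts per library in Abca3 cKO and 23531330 to 26071229 in controls. Abca3 counts sum over the whole gene, and Abca3 stood at 571 to 611 CPM (counts scaled to library size, with TMM factors) in Abca3 cKO and 634 to 694 CPM in controls (log2 fold change −0.17). With edgeR's quasi-likelihood test the adjusted p was 0.696, so this level does not check the genotype. The 10 AT2 markers summed to 78682 to 91116 CPM in Abca3 cKO and 70546 to 81539 CPM in controls, so AT2 transcripts were abundant in every library. Of these markers 8 of 10 had a positive log2 fold change. Without overlap, 5 were higher (7.34% of all genes) and 1, Abca3 itself, was lower (6.76% of all genes). Napsa, a protease that processes surfactant protein B, was called higher by edgeR (adjusted p = 0.0265, background 0.262%). DESeq2 called Lamp3, Napsa and Slc34a2 (1.49% of all genes). Sftpc, the gene of surfactant protein C, went the other way. It averaged 17527 ± 2600 CPM in Abca3 cKO and 22495 ± 4004 CPM in controls (log2 fold change −0.36, adjusted p = 0.479 by edgeR). Unadjusted edgeR p was under 0.05 in 4 AT2 markers that were higher and 1 that was lower (9.23% of all genes). Markers of airway club cells, led by Scgb1a1, were also high, with 56760.1 to 86704 CPM in Abca3 cKO and 68888 to 86483 CPM in controls over 4 genes. Scgb1a1 averaged 63936 CPM over all libraries, where the AT2 marker with the highest CPM, Slc34a2, averaged 22882.5 CPM. CPM is not scaled by length, so it does not rank these genes. Their exons span 476 bases in Scgb1a1 and 5013 in Slc34a2, beside 1034 in Sftpc. Airway transcripts were thus abundant in every library, and their part in the levels of the FGF genes was not tested. Control replicate 2 stood apart in Xist, the RNA of the inactive X chromosome, at 2343 CPM against 5.36 to 9.36 CPM in the other 5 libraries. It had 0 counts of the Y-linked genes Ddx3y, Eif2s3y and Kdm5d, which stood at 29.2 to 55.7 CPM in the other 5, so it differed from them in sex-chromosome transcripts.

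Which ligands a cell with Fgfr2 can receive depends on alternative splicing of the last part of the third immunoglobulin-like domain. The exon of the epithelial IIIb form, which binds Fgf7 and Fgf10, is shown here because it is the one that ties this receptor to both mesenchymal ligands. In GENCODE M21 on GRCm38 it lies on the minus strand at chr7:130199758-130199905 (148 bases), and 10 of the 17 protein-coding Fgfr2 transcripts annotated hold it. The sequence runs 5′ to 3′ along the transcript, all in lower case since no part of it is singled out.
Fgfr2 IIIb exon: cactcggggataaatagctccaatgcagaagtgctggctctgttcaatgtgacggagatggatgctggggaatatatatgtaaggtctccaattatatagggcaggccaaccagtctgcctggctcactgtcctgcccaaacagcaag
The deposited values sum reads over the gene, so they do not give the share of transcripts with this exon.

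Fgfr2 was the most abundant of the 10 genes and by far the main FGF receptor transcript in these libraries. Levels of different genes were set side by side as deposited RPKM, a unit that scales reads by transcript length and by depth. Within a gene, the deposited RPKM were not a fixed multiple of CPM between libraries. Fgfr2 averaged 92.4 ± 8.11 RPKM in Abca3 cKO and 81.8 ± 4.68 RPKM in controls (SD, n = 3 each). It took 90.5% ± 2.30 of the summed receptor RPKM in Abca3 cKO libraries and 90.1% ± 0.684 in control libraries. The other 3 receptors each took between 1.17% and 4.69% in any library. The share of Fgfr3 was 3.67% to 4.34% in Abca3 cKO and 4.54% to 4.69% in controls. These ranges did not overlap, whereas those of the other receptors did. Fgfr3 itself overlapped between the groups in RPKM and in CPM (adjusted p = 0.908 by edgeR). A share also moves with the levels of the other receptors, and how often such shares part over all genes was not computed.

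Among the ligands the order was led by Fgf1, a ligand that binds all FGF receptors, at 32.8 ± 3.17 RPKM in Abca3 cKO and 35.5 ± 3.23 RPKM in controls. Fgf18, which is known for its part in forming alveoli, followed at 17.5 ± 4.48 RPKM in Abca3 cKO and 15.8 ± 1.51 RPKM in controls. Over the 6 libraries the ranges of Fgfr2, Fgf1 and Fgf18 lay apart from each other and above the other genes. Fgfr3, Fgf7, Fgfr1, Fgf2 and Fgfr4 came next, with means over all libraries from 4.06 down to 2.16 RPKM, and the ranges of neighbours in this order overlapped. Fgf9 and Fgf10 were lowest, at 0.371 and 0.339 RPKM, with overlapping ranges. With CPM per kilobase of merged exons in place of RPKM, the same 3 genes led, Fgf7 came next, and Fgf2 took the lowest place behind Fgf10, so the position of Fgf2 rests on the unit.

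**Figure D1:**
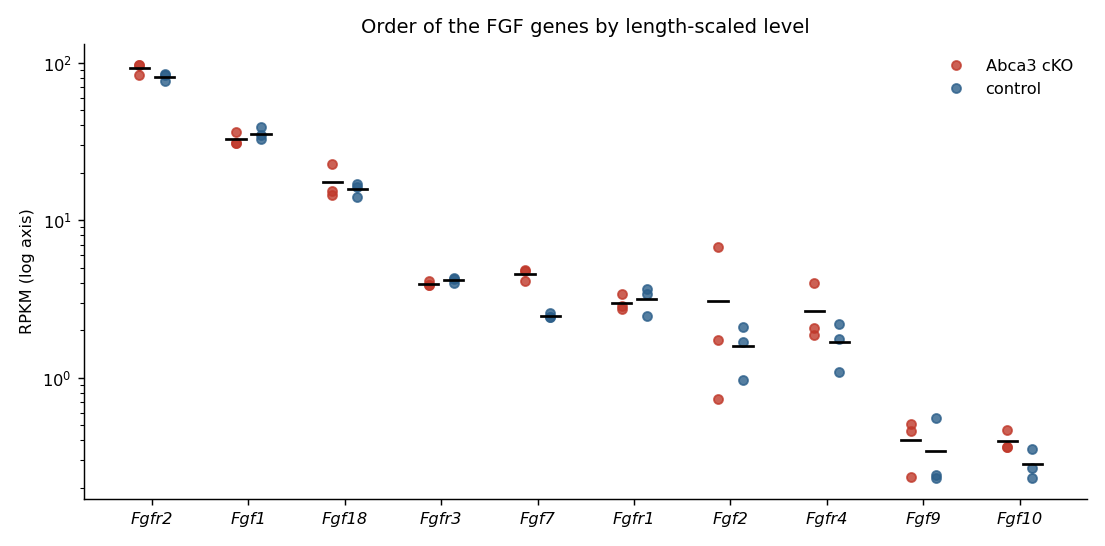
Deposited RPKM (log axis) of the 10 FGF genes in each library, ordered by the mean over all 6; points are libraries and black bars are group means (n = 3 per group). Fgfr2, Fgf1 and Fgf18 lie above the rest in every library, and Fgf7 is the gene whose groups part most clearly.

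None of the 10 genes passed an adjusted p of 0.05 in the comparison of Abca3 cKO with control, in which edgeR called 55 of 14477 genes tested (0.38%), 0.262% higher and 0.117% lower. Only Fgf7 had an unadjusted p under 0.05, where the background was 9.23%, and DESeq2 called 1, again Fgf7, against its own background of 1.49%. Fgf7 was also the only member whose CPM did not overlap between groups, against 14.1% of all genes tested. The log2 fold change was positive for 7 and negative for 3, with a median of 0.13 beside 0.00 for all genes tested. The 95% interval of the fold change covered no change in 9 of the 10.

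**Figure D2:**
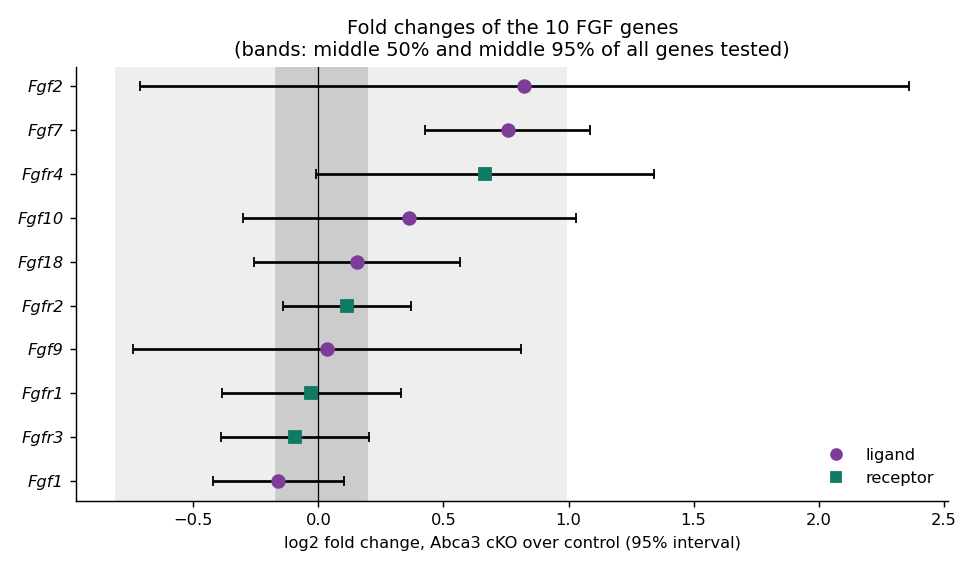
Log2 fold changes of Abca3 cKO over control with 95% intervals from edgeR, for ligands (circles) and receptors (squares); grey bands hold the middle 50% and the middle 95% of the 14477 genes tested. The interval of Fgf7 alone lies wholly on one side of 0.

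Fgf7, also called keratinocyte growth factor, is a mesenchymal ligand of Fgfr2 IIIb and a mitogen for AT2 cells (chromosome 2, 126034658 to 126091185, GRCm38.p6). It stood at 33.6, 28.5 and 31.7 CPM in the Abca3 cKO libraries and at 17.5, 18.1 and 19.9 CPM in the control libraries. Every Abca3 cKO library was above every control library. The ratio was 1.69-fold (95% interval 1.34 to 2.12; log2 fold change 0.76, SE 0.154), and edgeR's quasi-likelihood test gave an adjusted p of 0.0536, just outside the threshold. Rank by p placed it 58th among the genes tested. The deposited RPKM showed the same order, with 4.80, 4.13 and 4.76 in Abca3 cKO and 2.41, 2.57 and 2.42 in controls. No gene annotated in GENCODE M21 shares exon bases with Fgf7.

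The call on Fgf7 depended on the method. It was past the threshold with DESeq2 (adjusted p = 0.00193) and with edgeR when no count filter was used (adjusted p = 0.0195, background 0.698%). It was not past it in the 6 edgeR fits that left out a library (adjusted p from 0.0884 to 0.209, log2 fold change from 0.70 to 0.82), nor on RPKM with limma. Without control replicate 2, the library that stood apart in Xist, the log2 fold change was 0.74 (adjusted p = 0.137). As a share of the summed RPKM of the 6 ligands, Fgf7 made up 7.79% ± 0.826 in Abca3 cKO and 4.43% ± 0.451 in controls. These ranges did not overlap, and for ligand shares too no rate over all genes was computed.

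Transcripts of mesenchymal cells were higher in the same libraries as Fgf7. The 12 mesenchymal markers, led by Dcn, Col3a1 and Inmt, summed to 2401, 1618 and 1700.0 CPM in Abca3 cKO and to 1591, 1139 and 1434 CPM in controls, so that all Abca3 cKO libraries were above all controls, the lowest of them narrowly. All 12 had a positive log2 fold change, with a median of 0.43, and 7 did not overlap between groups (7.34% of all genes were higher without overlap), but none was called by edgeR or DESeq2, and 6 had an unadjusted edgeR p under 0.05 (9.23% of all genes). Dcn, a collagen-binding proteoglycan, averaged 364 ± 62.2 CPM in Abca3 cKO and 274 ± 35.7 CPM in controls, and Inmt, a methyltransferase gene abundant in lung, was at 257 ± 23.3 CPM in Abca3 cKO and 183 ± 40.0 CPM in controls. Set against the marker sum of its own library, Fgf7 was at 1.40%, 1.76% and 1.87% in Abca3 cKO and at 1.10%, 1.59% and 1.39% in controls. These ratios overlapped between the groups, with means of 1.68% ± 0.245 in Abca3 cKO and 1.36% ± 0.246 in controls. The part of the mesenchymal transcripts in the Fgf7 difference was not tested. In such bulk samples more cells of a type and more RNA per cell cannot be told apart.

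**Figure D3:**
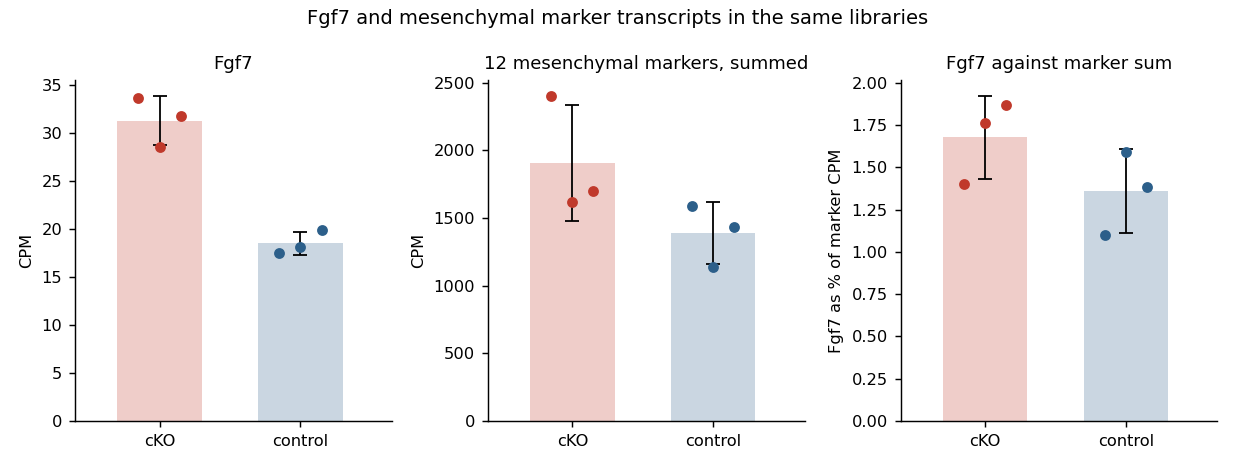
Fgf7 (CPM), the sum of 12 mesenchymal marker genes (CPM) and Fgf7 as a percentage of that sum; points are libraries, bars are means and whiskers are SD (n = 3 per group). The groups are apart in the first 2 panels and overlap in the third.

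Fgf10, the mesenchymal ligand that drives lung budding in the embryo and shares the IIIb receptor with Fgf7 (chromosome 13, 118714699 to 118792573), stood at a much lower level. It had 5.57, 4.67 and 4.64 CPM in Abca3 cKO and 3.59, 2.89 and 5.08 CPM in controls. The highest control lay among the Abca3 cKO values, and the ratio was 1.29-fold with an interval from 0.812 to 2.04 (adjusted p = 0.807 by edgeR). On the RPKM scale the groups were just apart, at 0.464, 0.361 and 0.362 in Abca3 cKO and 0.265, 0.232 and 0.350 in controls. Limma did not call Fgf10 either, and the share of all genes that part on RPKM was not computed. Relative to the mesenchymal marker sum, Fgf10 averaged 0.265% ± 0.0293 in Abca3 cKO and 0.278% ± 0.0674 in controls. An antisense gene, Gm16263, covers 2.67% of the exon bases of Fgf10.

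Fgf1 (chromosome 18, 38838672 to 38929470) had the highest CPM of the ligands. Its values were 315, 339 and 368 CPM in Abca3 cKO and 375, 336 and 430.4 CPM in controls. The groups overlapped, and the ratio was 0.895-fold with an interval from 0.746 to 1.07 (adjusted p = 0.776 by edgeR). Fgf18 (chromosome 11, 33116970 to 33147400) had 28.2, 47.1 and 29.9 CPM in Abca3 cKO and 34.3, 28.0 and 32.2 CPM in controls. The high mean in Abca3 cKO came from replicate 2, and without that library the log2 fold change was −0.12 in place of 0.15. AT1 cell markers, genes of the flat gas-exchange cells, were at 2484 to 3351 CPM summed over 10 genes in Abca3 cKO and 3165 to 4428 CPM in controls. All 10 AT1 markers had negative log2 fold changes, 3 of them without overlap (6.76% of all genes were lower without overlap), and edgeR called none. Unadjusted edgeR p was under 0.05 in 4 of them (9.23% of all genes), and 2 (Clic5 and Akap5) were called by DESeq2 (1.49% of all genes). Their part in the levels of Fgf1 and Fgf18 was not tested.

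**Figure D4:**
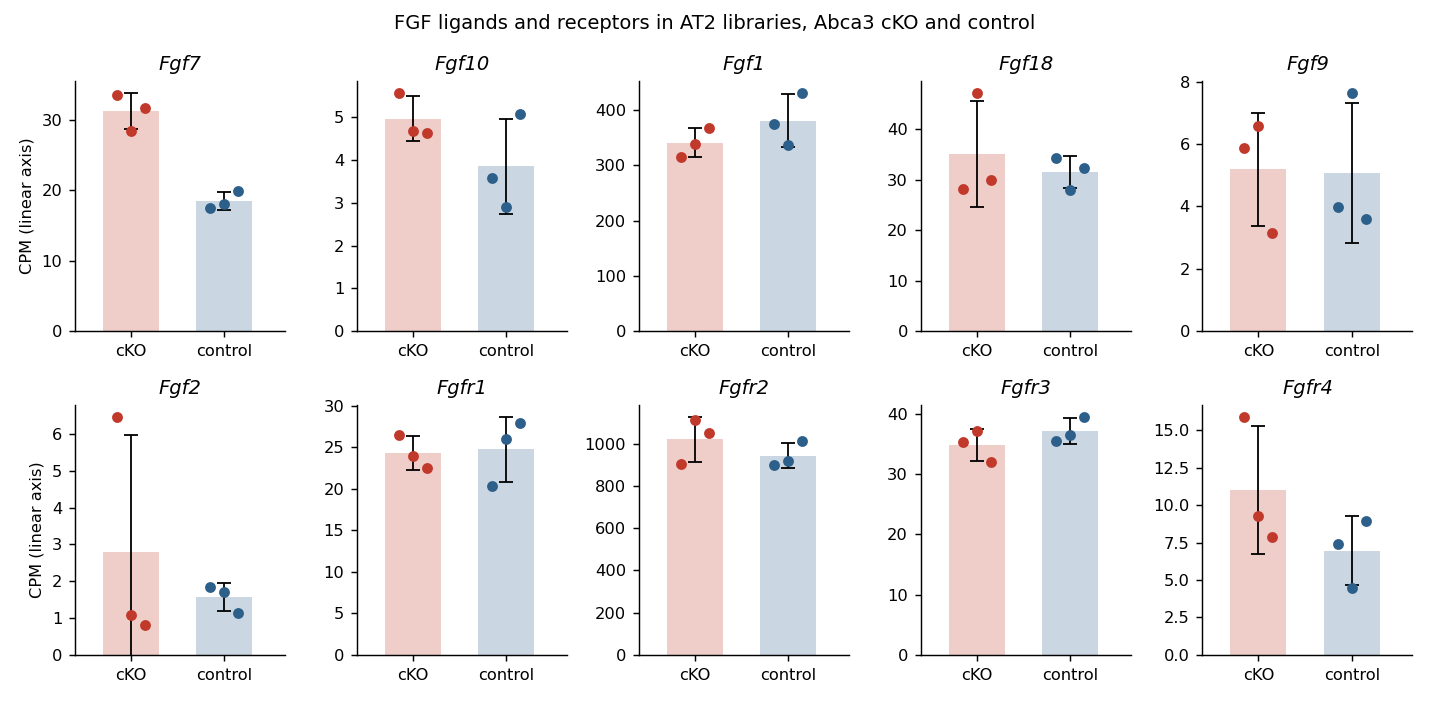
CPM of each FGF gene in the Abca3 cKO libraries (left bar of each panel) and the control libraries (right bar); points are libraries, bars are means and whiskers are SD (n = 3 per group), with the lower whisker of Fgf2 running below 0. Fgf7 is the one panel in which the groups do not overlap, and single Abca3 cKO libraries stand high for Fgf2, Fgf18 and Fgfr4.

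Fgf9, a ligand made by the mesothelium and epithelium of the developing lung (chromosome 14, 58070671 to 58112854), had 5.86, 6.58 and 3.15 CPM in Abca3 cKO and 3.97, 7.64 and 3.61 CPM in controls. Both groups spanned about the same range. The log2 fold change was 0.03, with an interval from −0.74 to 0.81, and it changed sign in 4 of the fits without a library. Mesothelial markers, led by Upk3b and Lrrn4, summed over 6 genes to 772, 478 and 420 CPM in Abca3 cKO and to 474, 441 and 378 CPM in controls, with Abca3 cKO replicate 1 the highest. Their part in the level of Fgf9 was not tested.

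Fgf2, the basic FGF held in the extracellular matrix (chromosome 3, 37348477 to 37410106), was near the low end of what these libraries resolve. It had 153, 28 and 20 counts in Abca3 cKO, or 6.45, 1.09 and 0.807 CPM, and 44, 44 and 29 counts in controls, or 1.86, 1.70 and 1.15 CPM. Abca3 cKO replicate 1 was the highest of all libraries and the other 2 Abca3 cKO libraries the lowest. The log2 fold change of 0.82 (interval −0.71 to 2.36, adjusted p = 0.809 by edgeR) turned to −0.72 without that library. Abca3 cKO replicate 1 was also the library with the most mesenchymal and mesothelial marker transcripts, whose part in this value was not tested. RPKM and counts of Fgf2 did not move together, since RPKM per CPM ran from 0.516 to 1.60 between libraries. Fgf2 was not alone in this. The gene Fgf11, whose exons overlap no annotated gene, had 0 RPKM at 11 counts in Abca3 cKO replicate 2. In control replicate 3 it had 0.229 RPKM at 3 counts. Exons of Fgf2 overlap those of Nudt6, an antisense gene, over 640 bases and those of Gm43439 over 255 bases, and the counting of shared reads is not given in the sources used here, so the value of Fgf2 is uncertain.

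Fgfr2 (chromosome 7, 130162451 to 130266808) had 901, 1109.7 and 1049 CPM in Abca3 cKO and 898, 918 and 1011 CPM in controls. The groups overlapped, and the ratio of 1.08-fold had an interval from 0.906 to 1.29 (adjusted p = 0.857 by edgeR), so that a difference as large as that of Fgf7 lay outside the interval. It shares 314 exon bases (3.04%) with Ctbp2 on the same strand. Fgfr3 (chromosome 5, 33721724 to 33737068) had 35.4, 37.1 and 32.0 CPM in Abca3 cKO and 35.4, 36.4 and 39.5 CPM in controls, with an interval of the ratio from 0.764 to 1.15. A gene on the opposite strand, G630022F23Rik, covers 13.9% of its exon bases. Fgfr1, the main FGF receptor of mesenchymal cells (chromosome 8, 25518759 to 25575718), had 26.5, 24.0 and 22.5 CPM in Abca3 cKO and 20.4, 26.0 and 28.0 CPM in controls, with an interval from 0.765 to 1.26.

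Fgfr4 (chromosome 13, 55152818 to 55168759), a receptor known in liver for bile acid signalling through Fgf15, was the receptor with the largest estimated difference. It had 15.9, 9.30 and 7.87 CPM in Abca3 cKO and 7.43, 4.44 and 8.96 CPM in controls. Replicate 1 of Abca3 cKO was the highest, and the highest control lay above the lowest Abca3 cKO library. The log2 fold change of 0.67 (interval −0.01 to 1.34, adjusted p = 0.550 by edgeR) was 0.30 without that library and 0.43 without control replicate 2.

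The genes whose profile over the 6 libraries was most like that of the leading ligand and the leading receptor were found by the root mean square difference of centred log2 CPM, among 10318 other genes that averaged 5 CPM or more. For Fgf1 they were Smdt1 (0.0331), Mpv17l (0.0350) and Mdm2 (0.0378), where the median gene was at 0.237. For Fgfr2 they were Mrpl36 (0.0266), Unc93b1 (0.0310) and Bpnt1 (0.0376), where the median gene was at 0.224. With 6 libraries this describes these profiles only.

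The rest of the FGF pathway was described by 6 lists of 94 genes in all, of which 75 were tested. One gene was called, Myc, which is 1.33% of those tested beside the background of 0.38%. Unadjusted p fell under 0.05 in 12 genes, 16.0% beside 9.23% of all genes, and 12 did not overlap between groups, 16.0% beside 14.1%. The median log2 fold change of the 75 was 0.00.

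The list of other FGF ligands also holds intracellular FGF homologues such as Fgf11, and its genes were nearly silent. Of 16 genes, 8 had 0 counts in every library, for which 3 counts, the limit that a count of 0 allows, would be 0.116 to 0.127 CPM, and only Fgf11, an intracellular FGF homologue, passed the filter. It had 0.844, 0.428 and 0.807 CPM in Abca3 cKO and 0.887, 1.20 and 0.119 CPM in controls. None of the untested genes of this list reached more than 26 counts in a library. Fgf15, the ligand of Fgfr4 in the mouse gut and liver, was among those with 0 counts.

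Co-receptors and FGF-binding proteins had 14 of 16 genes tested and none called by edgeR or DESeq2. An unadjusted edgeR p under 0.05 was found for 1 (9.23% of all genes). The log2 fold change was positive for 7, with a median of −0.07. The heparan sulfate proteoglycan gene Gpc4 had 43.5, 33.9 and 39.2 CPM in Abca3 cKO and 30.7, 30.9 and 27.0 CPM in controls, with no overlap (log2 fold change 0.40, adjusted p = 0.390 by edgeR). Fgfrl1, a receptor that lacks the kinase domain, had 15.4, 13.8 and 10.5 CPM in Abca3 cKO and 16.1, 15.9 and 19.5 CPM in controls, again with no overlap (log2 fold change −0.38, adjusted p = 0.613). Among the 14 tested, groups did not overlap in 2 higher genes and 1 lower gene, beside 7.34% and 6.76% of all genes. The genes Kl and Klb, co-receptors of the hormone-like FGFs, had at most 4 and 8 counts in a library and were not tested.

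All 12 genes of heparan sulfate synthesis and editing were tested, and none was called by either tool. An unadjusted edgeR p under 0.05 was found for 2 (9.23% of all genes). The log2 fold change was positive for 6, with a median of −0.02. Sulf2, which removes sulfate groups from heparan sulfate outside the cell, had 79.2, 60.5 and 73.4 CPM in Abca3 cKO and 53.0, 61.4 and 55.1 CPM in controls. Ndst1, which adds sulfate to the growing chain, had 352, 433 and 379.9 CPM in Abca3 cKO and 551, 396 and 506 CPM in controls. In both genes the groups overlapped.

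Adaptors and the RAS-ERK and PI3K cascade had 24 of 25 genes tested and none called by either tool. An unadjusted edgeR p under 0.05 was found for 1 (9.23% of all genes). The log2 fold change was positive for 10, with a median of −0.03. Hras was not matched by symbol and was not analysed here. Nras, a RAS GTPase, had 118, 108 and 116 CPM in Abca3 cKO and 148, 149.8 and 135 CPM in controls, without overlap (log2 fold change −0.34, adjusted p = 0.254 by edgeR). Nras was the 1 gene of this list without overlap, beside 14.1% of all genes. Ptpn11, the phosphatase SHP2 that links receptors to RAS, had 102, 91.6 and 93.3 CPM in Abca3 cKO and 111, 119.7 and 102 CPM in controls, where the lowest control lay below the highest Abca3 cKO library.

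Feedback inhibitors of the cascade had 11 genes tested and none called by either tool (4 at an unadjusted edgeR p under 0.05, where 9.23% of all genes were), with 6 positive. Groups did not overlap in 5 of the 11, 2 higher and 3 lower, beside 14.1% of all genes (7.34% higher and 6.76% lower). Spred3 had 7.89, 9.92 and 10.2 CPM in Abca3 cKO and 3.84, 4.90 and 7.49 CPM in controls (log2 fold change 0.78, adjusted p = 0.351 by edgeR), while Spred1 had 109, 113 and 123 CPM in Abca3 cKO and 137, 158 and 124 CPM in controls (log2 fold change −0.28, adjusted p = 0.461). Both encode Sprouty-related inhibitors of RAF activation. The third Spred gene, Spred2, averaged 64.8 ± 2.27 CPM in Abca3 cKO and 64.8 ± 7.80 CPM in controls. The Sprouty genes fall outside the rule for named genes, and none was called. Their log2 fold changes were 0.11 for Spry1 (adjusted p = 0.836), −0.30 for Spry2 (0.541) and 0.54 for Spry4 (0.544). Spry3 was barely detected, with 5, 2 and 14 counts in Abca3 cKO and 17, 18 and 54 counts in controls (log2 fold change −2.04, adjusted p = 0.461).

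Target transcription factors and growth genes had 13 of 14 genes tested, 1 called lower (0.117% of all genes) and none higher, with 9 positive and a median log2 fold change of 0.15. Myc, a growth-promoting transcription factor induced by many mitogens, fell. It had 4.26, 4.71 and 7.02 CPM in Abca3 cKO and 14.5, 20.2 and 9.79 CPM in controls, with no overlap (log2 fold change −1.48, SE 0.288, adjusted p = 0.0434 by edgeR). The call was lost in 4 of the 6 fits without a library: without Abca3 cKO replicate 1 (adjusted p = 0.177) or 2 (0.20), and without control replicate 1 (0.142) or 2 (0.159). It was also lost with limma on RPKM (adjusted p = 0.118 and 0.146 with pseudocounts of 0.1 and 1). The call held with DESeq2 (adjusted p = 0.000442), and in edgeR with no count filter (0.00373) or with RLE size factors (0.0427). Leaving out replicate 3 of either group also kept it (adjusted p = 0.0491 for Abca3 cKO and 0.0229 for control, by edgeR). The ETS factor Etv5, an FGF-induced gene needed for AT2 cell identity, and Id2, an inhibitor of basic helix-loop-helix factors, had positive log2 fold changes. These genes and Phlda1 were chosen after their values were seen. Etv5 had 1219.7, 1352 and 1379 CPM in Abca3 cKO and 903, 925 and 1174 CPM in controls, with no overlap (log2 fold change 0.40, adjusted p = 0.287 by edgeR). Id2 had 53.9, 77.7 and 43.7 CPM in Abca3 cKO and 38.0, 26.7 and 26.7 CPM in controls (log2 fold change 0.94, adjusted p = 0.119 by edgeR, called by DESeq2 at adjusted p = 0.00243). Phlda1 had 90.3, 126.8 and 87.8 CPM in Abca3 cKO and 124.2, 133.7 and 198 CPM in controls, with overlap (log2 fold change −0.58, adjusted p = 0.357 by edgeR). Unadjusted edgeR p was under 0.05 for 4 genes of this list (9.23% of all genes), 2 with positive and 2 with negative log2 fold changes. Groups did not overlap in 2 higher genes and 1 lower gene (7.34% and 6.76% of all genes). DESeq2 called 2, Id2 and Myc (1.49% of all genes).

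**Figure D5:**
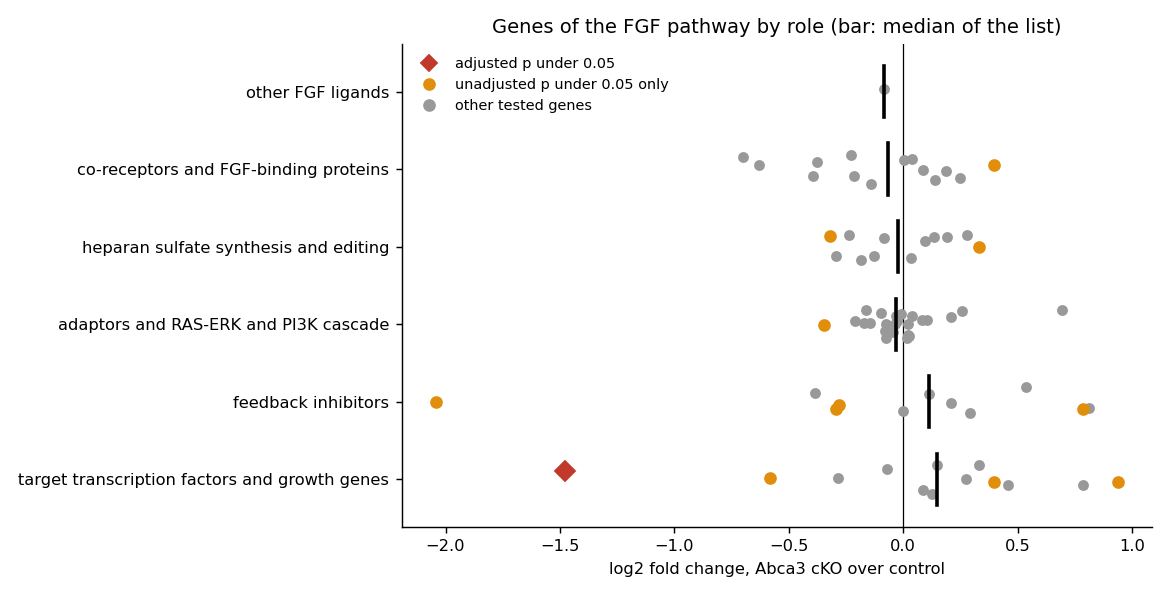
Log2 fold changes (Abca3 cKO over control) of the 75 tested genes of the FGF pathway by list, with the median of each list as a bar; the diamond is past adjusted p 0.05, and orange points have an unadjusted p under 0.05 only. The diamond is Myc, at −1.48, the lowest point is the barely detected Spry3, at −2.04, and the list medians lie between −0.08 and 0.15.

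Marker sums of the remaining cell types were low, and their ranges overlapped between the groups. None of these markers was called by edgeR or DESeq2. Endothelial markers summed over 8 genes to 43.7 to 88.8 CPM in Abca3 cKO and 57.8 to 99.2 CPM in controls, mostly from Kdr, with Emcn at 0 counts. Of the 5 tested, 2 had a positive log2 fold change (median −0.01), and 1 was lower at an unadjusted edgeR p under 0.05 (9.23% of all genes). Immune markers summed over 9 genes to 43.0 to 57.9 CPM in Abca3 cKO and 50.6 to 79.8 CPM in controls, mostly from Csf1r. Of the 5 immune markers tested, 1 had a positive log2 fold change, and the median was −0.45. Ciliated cell markers summed over 4 genes to 61.1 to 76.8 CPM in Abca3 cKO and 67.7 to 79.4 CPM in controls, with a median log2 fold change of −0.06.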

How the data were processed

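The authors deposited whole-number counts of reads per gene and RPKM values for 6 libraries. Per the labels' protocols, RNA of AT2 cells purified by depletion went through NuGEN Ovation v2 amplification and Nextera XT library preparation, which keep no strand. Per the submitters' processing notes the build was mm10 (GRCm38), and the tools, listed without roles, were DESeq, Cufflinks 2.0.2, TopHat2 2.0.8 and Bowtie2 2.1.0. Which program counted reads, and on which annotation, is not given in the sources used here. Amplified reads are not independent molecules, so the limit for a count of 0 covers counting error only. A deposited list of gene symbols was not used.

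Counts were analysed with edgeR 4.0.16 in R 4.3.3 (filterByExpr, TMM, quasi-likelihood F test with robust estimation, two-sided, group as the only term), with Benjamini-Hochberg adjustment over 14477 genes and a threshold of 0.05. The SE is the log2 fold change divided by the square root of F. Alternatives were RLE size factors, no filter, DESeq2 1.42.0, a replicate block, each library left out, limma 3.58.1 on log2(RPKM + 0.1) and log2(RPKM + 1) for genes with a mean RPKM of at least 0.1, and, chosen after seeing the data, CPM per kilobase and levels without each Abca3 cKO library. Positions are from RefSeq GRCm38.p6, and exon overlaps and the Fgfr2 exon from GENCODE M21. Some marker and sequence results are not reported here. Libraries of a group differed beyond counting noise (chi-square per degree of freedom 30.5 to 52.1).

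The members and lists were chosen with earlier results of these data known. Named genes were the members, each list's called genes or otherwise its 2 smallest p, up to 3 leading markers per cell type and the 3 closest profiles. The Sprouty genes, Spred2, Etv5, Id2, Phlda1 and 2 AT1 and 3 AT2 markers called by a tool were named after their values were seen.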

Additional observations from a re-analysis of the deposited data

How the results depend on the processing

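Of the 10 FGF genes, 9 were not called under any alternative run, and Fgf7 was the 1 called with no count filter and the 1 called with DESeq2, against 0 in the other fits. The count over all genes moved from 55 to 132 with no filter, 233 with DESeq2, 33 with the replicate block, 22 and 21 on RPKM (pseudocount 0.1 and 1), and 21 to 50 when a library was left out. Called genes of the FGF pathway lists numbered 1, but 2 with DESeq2, 0 with the replicate block, 0 with either RPKM setting and 0 to 2 when a library was left out. The replicate numbers did not pair the samples (correlations of same-numbered deviations 0.0762, −0.0304 and −0.0272), and with the block Fgf7 had an adjusted p of 0.0807 and Myc of 0.106, with a log2 fold change of −1.45.

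Of the 20 genes run under the alternatives (the 10 FGF genes and 10 named pathway genes), 5 changed the sign of the log2 fold change in at least 1, none of them called. When a library was left out, Fgf2 ranged from −0.72 (without Abca3 cKO replicate 1) to 1.26, Fgf18 from −0.12 (without Abca3 cKO replicate 2) to 0.29, Fgf9 from −0.17 to 0.46, Fgfr1 from −0.15 to 0.064 and Fgf11 from −0.59 to 0.46. Fgf11 was 0.20 with the replicate block. The cause was not tested. The share of Fgfr2 among receptors was 90.3% by CPM per kilobase, and 89.8% to 91.8% when an Abca3 cKO library was left out. Among the 10 FGF genes, Fgf2, Fgf9 and Fgf10 had the fewest counts. They had under 200 counts in every library, and their intervals were wide.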
